A study of Mus musculus with 30 samples.

Results

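The genes described here encode the proteins of the cytoplasmic ribosome. They were taken as the array's gene probes named Rpl or Rps with a number and at most a short suffix, together with Rplp0, Rplp1, Rplp2 and Rpsa, and without the Rps6k kinases. This gave 80 genes of 21333 named genes on the array, each represented by its brightest probe, and 79 were measured. Rpl18 was not, because the spot of its only probe was an outlier spot in E2A-/- replicate 1.

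Array RNA came from C57BL/6 mouse cells stopped at early steps of B cell development, in 3 groups of 2 samples. E2A-/- and EBF-/- pre-pro-B cells lack the transcription factors E2A and EBF1, and both grew on a layer of S17 stroma in the cytokines SCF, FLT3 ligand and IL-7. RAG1-/- pro-B cells, which cannot rearrange their antigen receptor genes, were B220+ cells of femoral marrow expanded over 10 d in SCF and IL-7 alone. Comparisons with RAG1-/- cells thus differ in genotype and in culture at once, and these cannot be told apart. The labels do not state that replicates were separate cultures or animals, so p-values measure the spread between these samples, which may be technical. Chromatin immunoprecipitation sequencing covered 23 libraries and 1 mock precipitation of wild-type lymphoid cells without antibody. E2A and 5 histone marks were profiled in EBF-/- and RAG1-/- cells, and EBF1, FOXO1 and CTCF in RAG1-/- cells only. E2A was also precipitated after 1 or 6 h of tamoxifen in E2A-/- cells, and after 6 h in the E2A-/- T cell line A12, each carrying retroviral E47-ER, a fusion of full-length E2A with the ligand-binding domain of the estrogen receptor. Infected cells had been enriched by surface hCD25.

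The ribosome has a large subunit, which joins amino acids, and a small subunit, which reads the mRNA, and each protein of a subunit is needed in a fixed ratio to the others. Ribosomal protein mRNAs are among the most abundant of a growing cell. Many begin with a C followed by a run of pyrimidines, the terminal oligopyrimidine (TOP) motif, through which mTORC1 controls their translation. Their promoters are known for ETS-family sites, YY1 sites and for lacking a standard TATA box. E2A binds E-boxes, of which CAGNTG (N is any base) is the core form searched here.

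Promoters of the members that stood furthest from the others are printed first. Each runs from 250 bases before to 50 after the start that RefSeq annotates in GRCm38.p6, on the strand of the gene. Capitals mark matches, on either strand, to CCGGAA (ETS core), CCATNTT (YY1 core), CAGNTG (E-box core) or GGGCGG (SP1 core), and capitals can join where matches touch. Rpl31 (chr1:39367601-39367900, plus strand), Rpl14 (chr9:120571267-120571566, plus strand) and Rps21 (chr2:180257129-180257428, plus strand, the first of 2 annotated) had the largest falls in RAG1-/- cells among members called lower there against both other groups.

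Rpl31: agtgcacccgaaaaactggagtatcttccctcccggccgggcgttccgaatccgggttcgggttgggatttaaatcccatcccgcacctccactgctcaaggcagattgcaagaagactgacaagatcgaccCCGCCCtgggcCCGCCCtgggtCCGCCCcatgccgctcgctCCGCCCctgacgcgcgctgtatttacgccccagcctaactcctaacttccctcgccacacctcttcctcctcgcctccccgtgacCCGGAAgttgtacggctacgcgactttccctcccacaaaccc
Rpl14: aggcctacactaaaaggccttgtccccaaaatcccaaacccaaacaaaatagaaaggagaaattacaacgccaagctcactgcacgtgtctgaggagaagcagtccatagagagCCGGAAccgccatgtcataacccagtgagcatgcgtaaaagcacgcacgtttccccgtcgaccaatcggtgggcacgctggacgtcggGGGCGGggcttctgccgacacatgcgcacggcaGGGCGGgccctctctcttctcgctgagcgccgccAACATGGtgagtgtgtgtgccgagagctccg
Rps21: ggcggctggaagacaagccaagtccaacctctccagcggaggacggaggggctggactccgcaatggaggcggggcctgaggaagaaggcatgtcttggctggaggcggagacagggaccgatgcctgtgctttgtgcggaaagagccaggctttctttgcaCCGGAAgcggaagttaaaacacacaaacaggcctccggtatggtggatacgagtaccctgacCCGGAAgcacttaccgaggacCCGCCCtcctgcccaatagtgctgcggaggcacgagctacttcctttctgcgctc

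Each of the 3 held the ETS and the SP1 core and a pyrimidine run with C at the annotated start. A paralog pair follows. Rps27l (chr9:66945836-66946135, plus strand, the first of 2 annotated) is a p53 target, and Rps27 (chr3:90213599-90213898, minus strand) is its constitutive counterpart on the small subunit.

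Rps27l: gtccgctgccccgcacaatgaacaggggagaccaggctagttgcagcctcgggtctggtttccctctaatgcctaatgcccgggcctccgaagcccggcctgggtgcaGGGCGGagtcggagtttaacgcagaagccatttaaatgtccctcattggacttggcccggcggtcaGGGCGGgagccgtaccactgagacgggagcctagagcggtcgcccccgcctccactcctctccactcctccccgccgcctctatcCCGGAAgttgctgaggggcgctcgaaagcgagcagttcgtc
Rps27: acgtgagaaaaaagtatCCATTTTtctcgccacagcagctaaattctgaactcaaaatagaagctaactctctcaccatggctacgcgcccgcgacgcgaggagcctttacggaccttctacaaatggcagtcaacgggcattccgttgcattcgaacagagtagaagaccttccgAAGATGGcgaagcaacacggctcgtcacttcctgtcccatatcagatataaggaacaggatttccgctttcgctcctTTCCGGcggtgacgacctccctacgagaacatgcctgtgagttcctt

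Rps27 had the pyrimidine run at its start and 2 matches to CCATNTT, and Rps27l had neither. Rpl3l (chr17:24727576-24727875, plus strand, the first of 2 annotated), the muscle paralog of Rpl3, is shown because it had the largest difference of all members between both pre-pro-B groups.

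Rpl3l: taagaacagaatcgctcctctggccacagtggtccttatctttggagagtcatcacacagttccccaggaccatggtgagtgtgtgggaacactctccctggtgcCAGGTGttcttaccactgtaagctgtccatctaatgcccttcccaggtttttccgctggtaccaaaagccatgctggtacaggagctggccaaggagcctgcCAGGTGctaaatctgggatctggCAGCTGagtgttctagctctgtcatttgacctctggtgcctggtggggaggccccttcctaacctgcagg

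Its promoter held 3 matches to CAGNTG and none to the other cores. Rpl38 (chr11:114668330-114668629, plus strand) and Rpl27 (chr11:101441995-101442294, plus strand), both of the large subunit, had E2A peaks near their H3K4me3 peak in EBF-/- and RAG1-/- cells.

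Rpl38: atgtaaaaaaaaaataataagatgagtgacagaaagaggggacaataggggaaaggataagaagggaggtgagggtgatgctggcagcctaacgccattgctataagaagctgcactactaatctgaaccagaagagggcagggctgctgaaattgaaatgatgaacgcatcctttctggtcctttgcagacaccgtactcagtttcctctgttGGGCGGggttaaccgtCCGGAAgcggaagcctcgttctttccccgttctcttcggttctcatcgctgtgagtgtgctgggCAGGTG
Rpl27: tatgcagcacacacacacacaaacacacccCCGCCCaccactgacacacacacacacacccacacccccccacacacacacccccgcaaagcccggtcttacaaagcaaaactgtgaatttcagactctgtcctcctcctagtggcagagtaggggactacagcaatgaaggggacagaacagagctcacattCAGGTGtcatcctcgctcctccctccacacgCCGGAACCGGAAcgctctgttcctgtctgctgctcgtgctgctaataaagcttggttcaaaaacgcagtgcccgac

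Rpl27 held CAGGTG 57 bases before its start and a CCGGAA pair, and Rpl38 held CAGGTG 44 bases after it.

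Over the members, 60 matched an entry of the RefSeq promoter table. CCGGAA was present in 31 of them (51.7%), against 15.2% of 27025 promoters in the table. CCATNTT was in 18 (30.0% against 16.3%) and GGGCGG in 36 (60.0% against 35.9%). TATAAA was in 6 (10.0% against 14.2%). CAGNTG was less frequent than in all promoters, in 14 (23.3% against 51.1%). A run of at least 6 pyrimidines covering the annotated start, with C at the start, was in 13 (21.7% against 3.86%). A match is a description of letters and not a bound site, and these shares were not tested.

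Before the members are described, the samples were checked. Between 40.9% and 61.7% of spots were well above background in each channel, and replicates correlated across genes with Pearson's r between 0.977 and 0.988, where genes are not independent of one another. Tcf3, the gene of E2A, read 9.45 to 10.80 in E2A-/- cells on the normalized log2 scale and 13.41 to 15.04 in the other groups. Ebf1 was not lowest in the group that lacks it, with 10.87 and 10.92 in EBF-/-, 6.94 and 5.38 in E2A-/- and 12.55 and 12.38 in RAG1-/- samples. Rag1 was highest in the group that lacks it, with 10.52 and 11.12 in RAG1-/-, 9.79 and 9.58 in EBF-/- and 5.57 and 4.40 in E2A-/- samples. Whether the probes of these 3 targeted genes lie inside the deletions was not settled, so they check no label. Marker lists showed that 2 samples stood apart from their replicate. In RAG1-/- replicate 2 the log2 of the summed signal of 7 myeloid markers was 15.60 against 12.14 in replicate 1 (15.30 to 16.60 in the other groups), led by Mpo (14.6 against 9.1) and Lyz2 (14.5 against 11.1). In E2A-/- replicate 1 the sum of 7 B-lineage markers was 14.01 against 11.66 in replicate 2, 11.50 in both EBF-/- samples and 19.59 to 19.79 in RAG1-/-. E2A-/- replicate 1 shared an array with RAG1-/- replicate 1, and E2A-/- replicate 2 with EBF-/- replicate 1. Whether signal crossed between the channels of an array was not tested. T-lineage markers were called higher in EBF-/- than E2A-/- cells for 5 of 6, and cycling markers were called higher in RAG1-/- cells than in either other group for 7 of 8 (2 to 8 as each sample was left out). Of 7 stromal markers 2 could be tested, with sums of 12.98 and 12.79 in EBF-/- and 8.36 to 8.66 in the other samples, and of 5 mast cell markers 2, with sums of 10.56 and 10.58 in EBF-/-, 10.66 in RAG1-/- replicate 2 and 5.84 to 6.41 in the rest. The 2 erythroid markers tested had sums of 5.62 to 7.22. The part of these cell types, and of cell growth, in the differences below was not tested. In such bulk samples, fewer cells of a type and less RNA per cell cannot be told apart.

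Ribosomal protein genes were among the brightest on the array. Their mean normalized log2 signal had a median of 17.16 over the 79 members, against 10.39 over all 12816 genes tested. All 79 were well above background in every group and none was saturated. In 73 of them every sample lay over 14, and the sample values of all members ran from 9.41 to 18.75. Replicates were close, with a median absolute difference of 0.12 in E2A-/-, 0.09 in EBF-/- and 0.17 in RAG1-/- cells. Probe signals of different genes cannot be ranked as mRNA levels, and whether these probes also bind transcripts of the many processed ribosomal protein pseudogenes was not tested.

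Few members differed much between groups, and the direction of the family's median depended on how the channels were scaled. With quantile normalization, which gives every channel the same distribution, the members' median log2 difference was 0.12 in EBF-/- against E2A-/- cells, -0.21 in RAG1-/- against EBF-/- and -0.07 in RAG1-/- against E2A-/-, beside 0.00, 0.03 and 0.02 over all genes tested. With each channel scaled to its 75th percentile the members' medians were 0.14, 0.00 and 0.15 (all genes 0.01, 0.05 and 0.06), and with median scaling they were -0.08, 0.12 and 0.05 (all genes -0.20, 0.16 and -0.04). Both of these scalings shift a whole channel by a constant, so relative to all genes or to the members' median they give 1 value by construction. Less the median of all genes, the members' median was 0.12 with quantile normalization and 0.13 with a constant shift in EBF-/- against E2A-/- cells, and -0.24 and -0.04 in RAG1-/- against EBF-/-. It changed sign in RAG1-/- against E2A-/- cells, from -0.09 to 0.09. The 3 comparisons share samples, so their values are given side by side and are not independent.

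**Figure D1:**
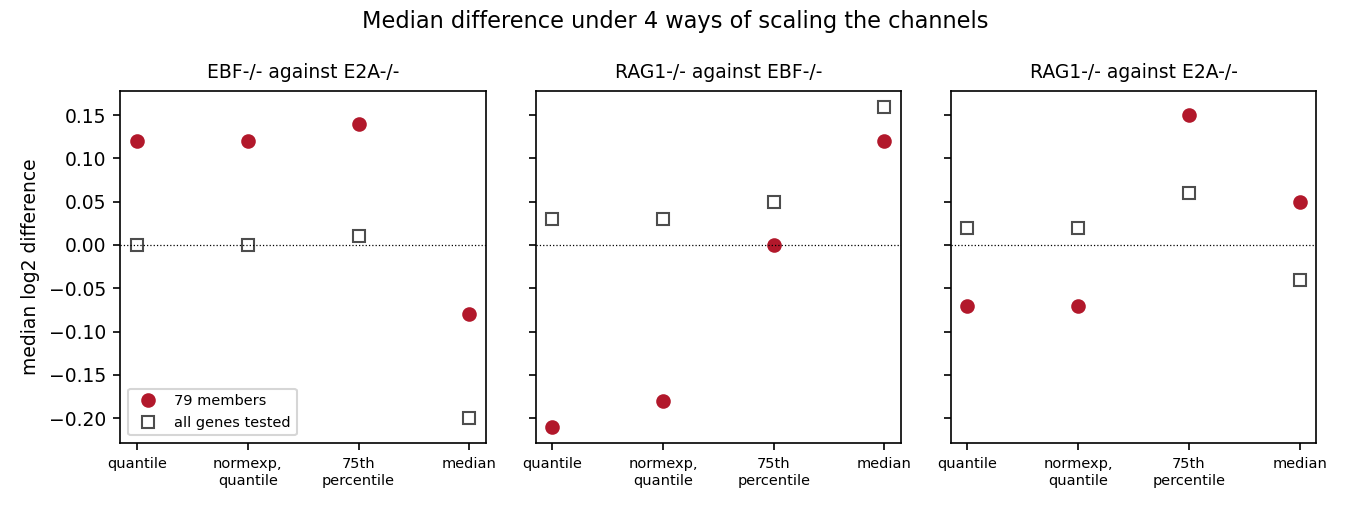
Median log2 difference (vertical axis) of the 79 measured ribosomal protein genes (filled circles) and of all genes tested (open squares) in 3 comparisons, under 4 ways of scaling the channels (horizontal axis). The members' median in RAG1-/- against EBF-/- cells runs from -0.21 with quantile normalization to 0.12 with median scaling.

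EBF-/- against E2A-/- sets cells that have E2A but no EBF1 beside cells that lack E2A. Of the 79 members, 1 was called higher and 1 lower (limma with Benjamini-Hochberg adjustment over all genes, threshold 0.05), where 12.6% of all genes were called higher and 11.2% lower. At an unadjusted p under 0.05, 14 were higher and 1 lower, beside 20.4% and 18.2% of all genes. The differences were small, with 62 members above 0 and 17 below 0 under quantile normalization and only Rpl3l over 2-fold (15.8% of all genes). Without overlap of samples, 33 members were higher (41.8%, against 34.3% of all genes) and 5 lower (6.33%, against 33.8%).

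Rpl3l, which replaces Rpl3 in ribosomes of striated muscle, had normalized log2 signals of 9.41 and 9.54 for E2A-/-, 11.47 and 11.45 for EBF-/- and 10.91 and 9.95 for RAG1-/- samples. The EBF-/- samples were the highest and the E2A-/- samples the lowest, with no overlap between groups. It was 1.98 higher on the log2 scale in EBF-/- than E2A-/- cells (SE 0.27, n = 2 per group, 3.93-fold, limma adjusted p = 0.0124). It was lower in RAG1-/- than EBF-/- cells (-1.03, adjusted p = 0.0379) and higher in RAG1-/- than E2A-/- cells (0.95, adjusted p = 0.0459), and each of these calls held in 2 of 6 fits that left out a sample, at -0.58 to -1.48 and 0.50 to 1.41. The call between the pre-pro-B groups was lost without E2A-/- replicate 1 (2.15, adjusted p = 0.0555), E2A-/- replicate 2 (1.81, adjusted p = 0.0759) or EBF-/- replicate 1 (1.70, adjusted p = 0.0751). Rpl3 itself read 17.39 and 17.44, 17.45 and 17.51, and 17.21 and 17.30 in the same order of groups, and was not called in any comparison (0.06, -0.22 and -0.16).

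Rps27l was the member called lower. It read 16.66 and 16.65 for E2A-/-, 15.90 and 15.93 for EBF-/- and 15.63 and 16.05 for RAG1-/- samples. The E2A-/- samples stood above all others. The fall was 0.74 in EBF-/- cells (log2 difference -0.74, SE 0.14, limma adjusted p = 0.0253) and 0.81 in RAG1-/- cells (-0.81, SE 0.14, adjusted p = 0.0104), while RAG1-/- and EBF-/- cells differed by -0.08 (adjusted p = 0.671). Against RAG1-/- cells the call was lost only without E2A-/- replicate 2 (-0.72, adjusted p = 0.0719). Against EBF-/- cells it was lost without either E2A-/- or either EBF-/- sample, at -0.62 to -0.86 with adjusted p from 0.0934 to 0.164, and with no filter on dim probes (-0.74, adjusted p = 0.0779). Its paralog Rps27 read 17.30 and 17.40 for E2A-/-, 17.58 and 17.95 for EBF-/- and 17.67 and 17.72 for RAG1-/- samples, lowest in E2A-/-. The differences of Rps27 from E2A-/- cells, 0.42 and 0.35, did not pass (limma adjusted p = 0.0839 and 0.0858). Less the members' median, the differences of Rps27l from E2A-/- cells were -0.85 to -0.93 in EBF-/- and -0.74 to -0.81 in RAG1-/- cells over the scalings.

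**Figure D2:**
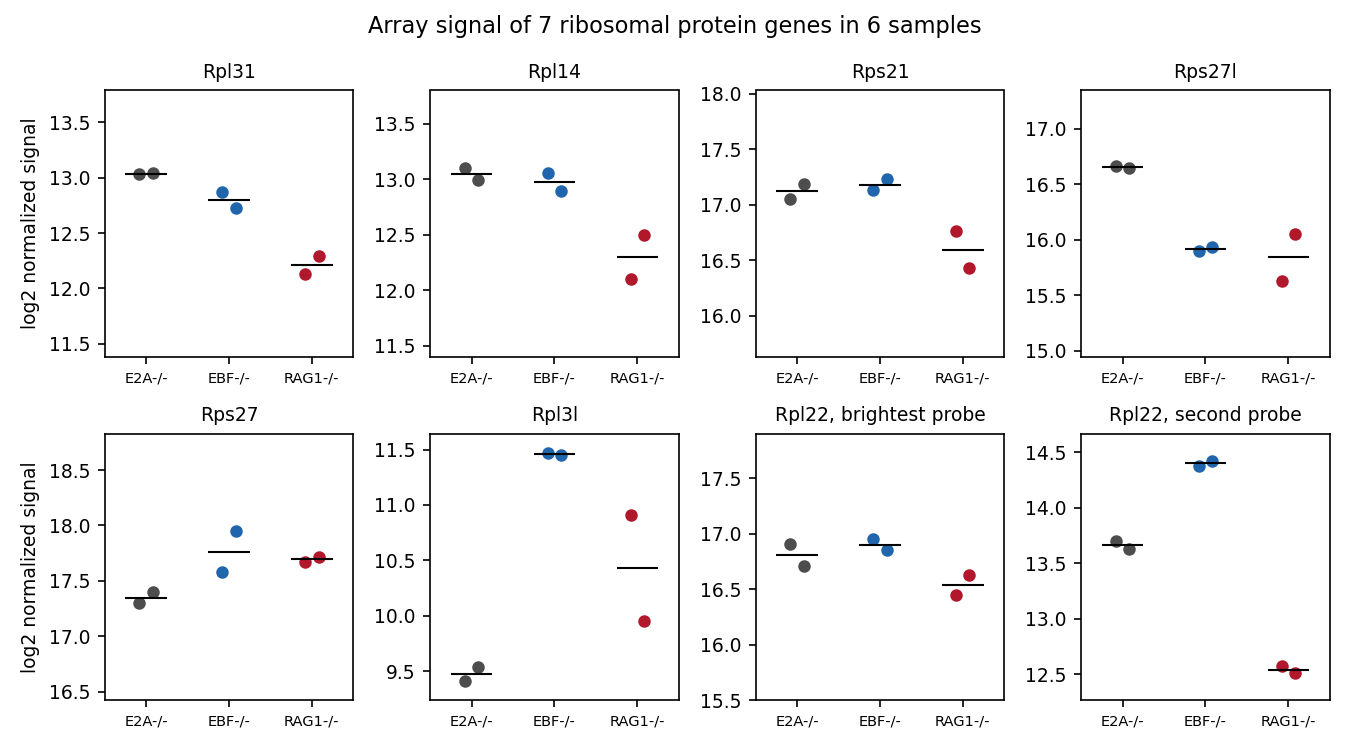
Normalized log2 array signal (vertical axis, a separate range in each panel) of 7 ribosomal protein genes in the 6 samples, by group (horizontal axis), with points for samples and lines for group means. Rps27l is high in the E2A-/- samples (16.66 and 16.65), Rpl31 and Rpl14 are low in the RAG1-/- samples, and the second probe of Rpl22 has wider gaps between groups than its brightest probe.

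RAG1-/- against EBF-/- sets committed pro-B cells beside cells stopped before EBF1 acts. Under quantile normalization 21 of 79 members were called lower (26.6%, where 23.0% of all genes were called lower) and 0 higher (20.5% of all genes), or 28 lower and 0 higher at an unadjusted p under 0.05 (27.2% and 25.2% of all genes). Without overlap of samples, 0 members were higher (38.4% of all genes) and 46 lower (58.2%, against 36.1%). The count of members called lower fell to 5 with 75th percentile scaling and to 2 with median scaling. Over all genes, the count called lower went from 2954 to 2751 and 1941 in those fits. Both counts also fell when an EBF-/- sample was left out, proportionally more for the members than for all genes. Such a fit has 1 sample in that group. The members' median was then -0.24 without EBF-/- replicate 1 and -0.15 without replicate 2. The count of members called lower was 11 without either E2A-/- sample, beside 2443 and 2435 of all genes. Their median was -0.16 without RAG1-/- replicate 1, and -0.24 without RAG1-/- replicate 2, the sample with more myeloid signal.

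Large subunit genes made up 13 of the 21, or 13 of 44 such genes measured (29.5%, beside 26.6% of all members). Rpl31 read 13.03 and 13.04 for E2A-/-, 12.87 and 12.73 for EBF-/- and 12.13 and 12.29 for RAG1-/- samples. The groups did not overlap, with RAG1-/- lowest and E2A-/- highest. It fell by 0.59 from EBF-/- to RAG1-/- cells (log2 difference -0.59, SE 0.09, limma adjusted p = 0.00758), and stood at -0.82 against E2A-/- cells (1.77-fold, adjusted p = 0.00299). The latter call held in 10 of 10 other settings and with each of 6 samples left out. The former was lost with median scaling (-0.44, adjusted p = 0.243) and without EBF-/- replicate 1 (-0.56, adjusted p = 0.0950) or replicate 2 (-0.63, adjusted p = 0.0684). A second Rpl31 probe gave -0.76 and -0.97 (adjusted p = 0.00584 and 0.00298).

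Rpl14, another large subunit gene, read 13.10 and 12.99 for E2A-/-, 13.06 and 12.89 for EBF-/- and 12.10 and 12.50 for RAG1-/- samples. Both RAG1-/- samples lay under all others, while both pre-pro-B groups overlapped. The log2 difference was -0.68 from EBF-/- cells (SE 0.10, limma adjusted p = 0.00817) and -0.75 from E2A-/- cells (SE 0.10, adjusted p = 0.00588). Calls for Rpl14 were lost against EBF-/- cells with median scaling (-0.51, adjusted p = 0.158) and without EBF-/- replicate 1 (-0.71, adjusted p = 0.0675) or replicate 2 (-0.64, adjusted p = 0.0783), and against E2A-/- cells only without E2A-/- replicate 2 (-0.66, adjusted p = 0.0580). Less the members' median, over the scalings, Rpl31 in RAG1-/- cells stood at -0.38 to -0.56 from EBF-/- and -0.72 to -0.94 from E2A-/- cells, and Rpl14 at -0.47 to -0.64 and -0.68 to -0.86.

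Apart from Rpl3l, the other large subunit genes called lower had smaller differences. Rpl4 stood at -0.54 (limma adjusted p = 0.0102) and Rpl10, a protein that joins the large subunit late, at -0.53 (adjusted p = 0.0125). Rpl12 (-0.45), which anchors the stalk base, Rpl37 (-0.44), Rpl10a (-0.41), Rpl38 (-0.39), Rpl22 (-0.36), Rpl35 (-0.36), Rpl6 (-0.35) and Rpl24 (-0.26) followed. With Rpl3l, Rpl31 and Rpl14 these are all 13. Most of these calls were lost as samples were left out. Those of Rpl6 and Rpl24 held in 0 of 6 such fits, Rpl22, Rpl37 and Rpl38 in 1, Rpl35 in 2, Rpl12 in 3, Rpl10 and Rpl10a in 4 and Rpl4 in 5. The stalk, which recruits translation factors to the large subunit, had 2 of 3 called lower. Rplp1 stood at -0.52 (adjusted p = 0.0348) and Rplp0 at -0.38 (adjusted p = 0.0171), calls that held in 3 and 4 of the 6 fits, and Rplp2 was not called (-0.14, adjusted p = 0.529).

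Small subunit genes made up 6 of the 21, or 6 of 32 measured (18.8%). Rps21 read 17.05 and 17.19 for E2A-/-, 17.13 and 17.23 for EBF-/- and 16.76 and 16.43 for RAG1-/- samples, with RAG1-/- lowest and the other groups overlapping. It stood at -0.58 from EBF-/- cells (SE 0.09, limma adjusted p = 0.0101) and -0.52 from E2A-/- cells (SE 0.10, adjusted p = 0.0132). The first call was lost without EBF-/- replicate 1 (-0.51, adjusted p = 0.0898), with median scaling (-0.30, adjusted p = 0.355) and with no filter on dim probes (adjusted p = 0.0628). The second was lost without either E2A-/- sample (-0.49 and -0.56, adjusted p = 0.0765 and 0.0683) and in 5 of 10 other settings. The 2 other Rps21 probes did not pass, at -0.30 and -0.45 from EBF-/- cells (adjusted p = 0.173 and 0.0840) and -0.27 and -0.32 from E2A-/- cells (adjusted p = 0.215 and 0.175). Rps25 (-0.43), needed by some viral and cellular internal ribosome entry sites, Rps15 (-0.42), Rps26 (-0.34), which contacts mRNA at the exit channel, Rps15a (-0.30) and Rps9 (-0.30) were the others. With a sample left out, the calls of Rps15a and Rps9 held in 0 of 6 fits, Rps15 and Rps26 in 1 and Rps25 in 3. With median scaling the sign of Rps15a turned (0.04).

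RAG1-/- against E2A-/- gave 10 members called lower (12.7%, where 23.1% of all genes were called lower) and 2 higher (22.4% of all genes). Lower without overlap were 29 (36.7%, against 36.2% of all genes) and higher 11 (13.9%, against 37.7%). With 75th percentile scaling the counts were 4 higher and 3 lower, beside 2884 and 2716 of all genes. Calls over all genes fell in both directions when an E2A-/- or EBF-/- sample was left out. Without either RAG1-/- sample the count of all genes called lower rose. Leaving out E2A-/- replicate 2 left 1 lower and 0 higher, and E2A-/- replicate 1, which held more B-lineage signal, 3 and 0. There were 5 lower without either EBF-/- sample, 6 without RAG1-/- replicate 1 and 10 without RAG1-/- replicate 2. Of the members called lower in RAG1-/- cells, 9 were called against both other groups, 12 against EBF-/- only and 1, Rps27l, against E2A-/- only. The same split over all genes was not computed. The differences between those calls were not tested, and both comparisons use the same RAG1-/- samples.

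Rps3a, a small subunit protein now named Rps3a1, was called higher beside Rpl3l. It read 16.95 and 17.01 for E2A-/-, 17.23 and 17.27 for EBF-/- and 17.52 and 17.25 for RAG1-/- samples, lowest in E2A-/- cells. Its log2 difference from E2A-/- cells was 0.40 (SE 0.10, limma adjusted p = 0.0288), and the call was lost in 5 of 6 fits that left out a sample, at 0.29 to 0.45. The other members lower in RAG1-/- than E2A-/- cells were Rpl38 (-0.43, adjusted p = 0.0176), Rpl12 (-0.33), Rps25 (-0.33), Rpl10a (-0.29), Rpl35 (-0.29) and Rpl22 (-0.27), beside Rpl31, Rpl14, Rps21 and Rps27l described above. Of these calls, those of Rpl12, Rpl10a, Rpl35 and Rpl22 held in 0 of 6 fits that left out a sample and in 3 or 4 of 10 other settings, Rps25 in 1 and 5, and Rpl38 in 3 and 5.

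**Figure D3:**
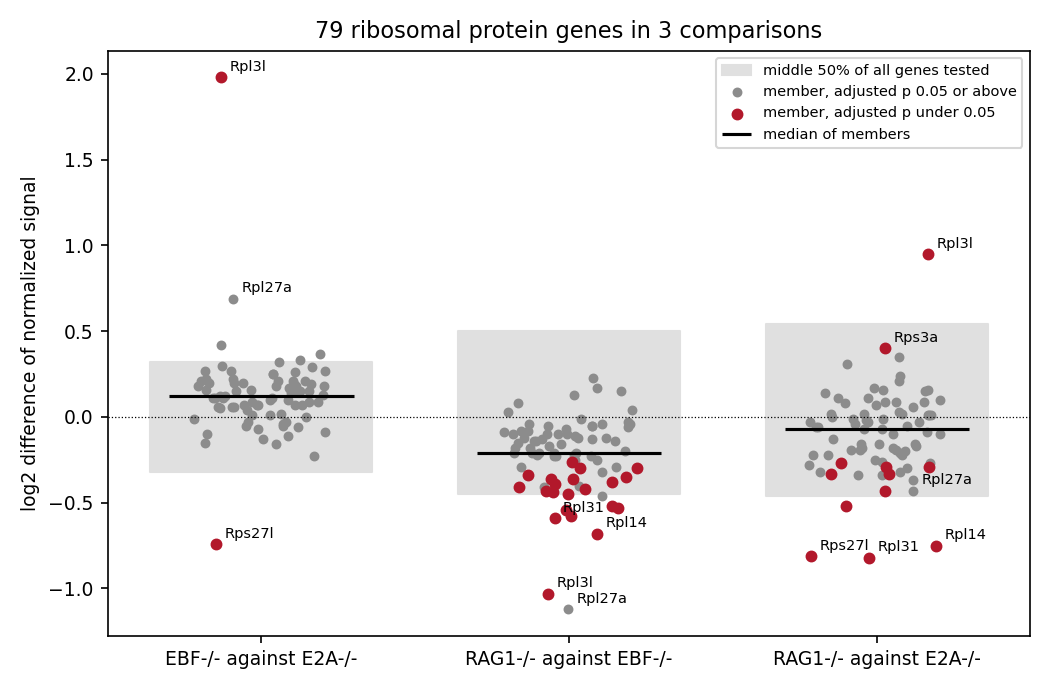
Log2 difference of normalized signal (vertical axis) of the 79 measured members in 3 comparisons (horizontal axis), with points in red where the limma adjusted p was under 0.05, lines for the members' median and grey boxes for the middle 50% of all genes tested. Most members lie within the grey boxes, and Rpl3l, Rps27l, Rpl31 and Rpl14 are among those called outside them.

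In all, 23 members were called in at least 1 comparison and 56 in none. The same share over all genes was not computed. It is at least 45.5%, since the single comparisons called 23.8%, 43.5% and 45.5% of all genes in either direction. Those 56 included several genes mutated in Diamond-Blackfan anaemia, in which red cell precursors fail. Rps19 had log2 differences of -0.03, 0.17 and 0.14 in the 3 comparisons, in the order used above. In that order, Rpl5 had 0.19, -0.11 and 0.09, and Rpl11 had 0.07, -0.13 and -0.06, both of which can hold back MDM2 when ribosome assembly fails. Rps14, whose loss on a deleted chromosome arm is known from a marrow syndrome with anaemia, stood at -0.41 in RAG1-/- against EBF-/- cells without passing (limma adjusted p = 0.0527). Rps24 had 0.26, -0.23 and 0.03, and Rpl35a had -0.06, -0.04 and -0.10. Rps26, in this disease group too, was called as given above.

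Rpsa, also described as a laminin receptor, had differences of 0.30, -0.29 and 0.01, and Rps6, the target of S6 kinases, 0.21, -0.10 and 0.11, with neither called. Of paralogs, Rpl22l1 had 0.25, -0.01 and 0.24 (limma adjusted p = 0.0724, 0.894 and 0.0544), against 0.09, -0.36 and -0.27 for Rpl22, whose loss is known to affect lymphocyte development. Rpl7l1 (-0.05, -0.04 and -0.10) and Rpl7 (0.11, -0.12 and -0.01) were not called. Rpl39 had 0.37, -0.17 and 0.21, and Rps4x, encoded on the X chromosome, 0.33, -0.03 and 0.31, also uncalled.

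Several members were read by more than 1 probe. Among 39 such genes and 51 further probes, 0 probes were called in the opposite direction to the brightest one in any of the 3 comparisons. In the same direction, 0, 5 and 3 were called. Both counts require that the brightest probe was itself called, so they are not shares of the 51 further probes. In EBF-/- against E2A-/- cells the called members, Rpl3l and Rps27l, had 1 probe each, so the 0 was fixed in advance. More than 1 apart on the log2 scale were 3, 5 and 4 probes. Rpl22 and Rpl21 are given in full. The second Rpl22 probe read 13.70 and 13.63 for E2A-/-, 14.38 and 14.42 for EBF-/- and 12.57 and 12.51 for RAG1-/- samples. The groups were widely separated on that probe, in the same direction as on the brightest one in each comparison. Its log2 differences were 0.74, -1.86 and -1.12 (limma adjusted p = 0.00842, 0.000671 and 0.00137). A second Rpl21 probe read 11.63 and 11.51 for E2A-/-, 9.86 and 9.76 for EBF-/- and 9.47 and 9.56 for RAG1-/- samples, giving -1.76 and -2.05 from E2A-/- cells (adjusted p = 0.00281 and 0.000628), while the brightest Rpl21 probe gave -0.13 and 0.09. Which transcripts these probes read was not tested. The brightest Rpl27a probe was lower in both channels of 1 array, with 13.05 in E2A-/- replicate 1 and 12.71 in RAG1-/- replicate 1 against 13.83 to 14.39 in the other 4 samples. Its difference of -1.12 in RAG1-/- against EBF-/- cells did not pass (adjusted p = 0.188).

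Other genes of ribosome production and translation were read from lists, whose counts stand beside 12.6% of all genes called higher and 11.2% lower in EBF-/- against E2A-/- cells, 20.5% and 23.0% in RAG1-/- against EBF-/-, and 22.4% and 23.1% in RAG1-/- against E2A-/-. Of 30 ribosome assembly factors, 7 were called lower and 0 higher in EBF-/- against E2A-/- cells (median -0.50, against 0.00 over all genes), and 11 lower and 0 higher in RAG1-/- against E2A-/- (median -0.47, against 0.02). The medians stayed below 0 with 75th percentile and median scaling (-0.36 to -0.70). In RAG1-/- against EBF-/- 2 were lower and 1 higher (median -0.02), but 11 were higher and 2 lower without RAG1-/- replicate 1 (median 0.23), 1 and 9 without RAG1-/- replicate 2 (median -0.16), and 0 and 0 without either EBF-/- sample. Mrto4, which places the stalk, stood at -0.72 in EBF-/- (limma adjusted p = 0.00965) and -0.79 in RAG1-/- cells (adjusted p = 0.00349) against E2A-/-. Pno1, of small subunit assembly, stood at -0.86 and Rrs1, of 5S particle assembly, at -0.77 in EBF-/- against E2A-/- cells. Nop2 (-0.80) and Ftsj3 (-0.75), both of large subunit assembly, were lower in RAG1-/- than E2A-/- cells. These counts changed with the samples fitted, and so did calls over all genes. In EBF-/- against E2A-/- cells 1431 of all genes were called lower, and fewer without any 1 of the E2A-/- or EBF-/- samples. Without RAG1-/- replicate 1 and replicate 2 these were 2500 and 2507. In RAG1-/- against E2A-/- cells they fell without an E2A-/- or EBF-/- sample and rose without a RAG1-/- sample. Whether the list changed more than all genes was not tested. In EBF-/- against E2A-/- cells the 7 lower became 20 without either RAG1-/- sample, 2 without E2A-/- replicate 1, and 0 without E2A-/- replicate 2 or either EBF-/- sample. In RAG1-/- against E2A-/- cells the 11 lower became 26 without RAG1-/- replicate 2, 10 without RAG1-/- replicate 1, 9 without either EBF-/- sample, 7 without E2A-/- replicate 1 and 2 without E2A-/- replicate 2.

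Of 15 RNA polymerase I genes, which make the large rRNA precursor, 1 was higher and 4 lower in EBF-/- against E2A-/- cells, 2 and 2 in RAG1-/- against EBF-/-, and 1 and 5 in RAG1-/- against E2A-/-. The shared subunit gene Polr1d stood at -1.75 and -1.91 from E2A-/- cells (limma adjusted p = 0.0153 and 0.00601). The 4 lower became 0 without either EBF-/- sample, 1 without either E2A-/- sample and 7 without either RAG1-/- sample. As each sample was left out, the counts against EBF-/- ran over 2 to 3 higher and 0 to 5 lower, and the last over 1 to 2 and 3 to 7, with most lower in both without RAG1-/- replicate 2. Of 13 RNA polymerase III and 5S rRNA genes, 1 was higher and 2 lower, 2 and 1, and 2 and 5 in that order. Gtf3a, the 5S rRNA transcription factor, stood at -1.56 in EBF-/- and -1.85 in RAG1-/- cells (adjusted p = 0.00288 and 0.000631). These counts ran over 0 to 1 higher and 1 to 2 lower, 0 to 2 and 1 to 4, and 0 to 3 and 2 to 5 as each sample was left out.

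Translation factors with TOP mRNAs had 1 of 17 higher and 1 lower, 1 and 4, and 0 and 3, with medians of 0.05, -0.14 and -0.04. The latter 2 medians turned positive with 75th percentile scaling (0.05 and 0.14). Eef1g, of the elongation factor 1 complex, stood at -0.50 against EBF-/- and -0.67 against E2A-/- in RAG1-/- cells (limma adjusted p = 0.0123 and 0.00526), and Eef1b2 of the same complex at -0.49 and -0.37. Leaving out each sample gave 0 to 2 higher and 0 to 1 lower, 0 to 1 and 0 to 4, and 0 to 1 and 2 to 4, with 0 and 1 of the 4 lower left without EBF-/- replicate 1 and replicate 2. Aminoacyl-tRNA synthetases, which charge tRNA, had 0 of 19 higher and 6 lower, 6 and 1, and 1 and 3. Rars stood at -0.98 in EBF-/- against E2A-/- cells and 0.70 in RAG1-/- against EBF-/- (adjusted p = 0.0162 and 0.0213). In EBF-/- against E2A-/- cells the 6 synthetases lower became 0 without any 1 of the E2A-/- or EBF-/- samples and 10 without either RAG1-/- sample. The 6 higher in RAG1-/- against EBF-/- became 0 and 1 without EBF-/- replicate 1 and replicate 2, 4 without either E2A-/- sample and 8 without RAG1-/- replicate 1, and the 1 lower became 3 without RAG1-/- replicate 2. The counts in RAG1-/- against E2A-/- ran over 0 to 2 higher and 1 to 6 lower.

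Of 17 mTORC1 and TOP regulators, 3 were higher and 2 lower, 4 and 3, and 2 and 3. Mycn, a growth regulator of the Myc family, stood at 1.98 in EBF-/- against E2A-/- cells (limma adjusted p = 0.00361) and -1.77 in RAG1-/- against EBF-/- (adjusted p = 0.00188). Myc stood at -1.69 in RAG1-/- against E2A-/- cells (adjusted p = 0.00487). Mtor, the kinase, and Rptor, its partner in mTORC1, were higher in RAG1-/- than EBF-/- cells by 2.57 and 1.61 (adjusted p = 0.0169 and 0.00122). In EBF-/- against E2A-/- cells the counts of these regulators became 1 higher and 0 lower without any 1 of the E2A-/- or EBF-/- samples, and 4 and 5 without either RAG1-/- sample. The other counts ran over 2 to 5 higher and 1 to 5 lower, and 1 to 5 and 1 to 5.

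A list of 10 ribosomal stress and p53 genes, which does not hold Rps27l, had 9 called lower and 0 higher in EBF-/- against E2A-/- cells (median -1.43) and 8 and 0 in RAG1-/- against E2A-/- (median -1.34). In RAG1-/- against EBF-/- 3 were higher and 3 lower (median 0.02), or 1 to 4 and 2 to 4 as each sample was left out. Zmat3, an RNA-binding p53 target, stood at -2.68 in EBF-/- and -2.94 in RAG1-/- cells against E2A-/- (limma adjusted p = 0.00551 and 0.00183), and Phlda3, which restrains AKT, at -2.38 and -2.40. Cdkn2a, whose ARF product acts on MDM2, stood at -3.27 in EBF-/- against E2A-/- cells (adjusted p = 0.00510). In RAG1-/- against EBF-/- cells it stood at 3.08 (adjusted p = 0.00265). As each sample was left out, 7 to 9 and 7 to 8 were called lower, and median scaling gave 9 and 7. Rps27l was also called lower in both comparisons with E2A-/- cells, and a link of this to p53 was not tested.

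Chromatin marks were read at the members' promoters from peak lists of 1 library each, so that values between genotypes have no replicate check and peak scores cannot be compared between lists. Genes were placed by their probe in build mm8, the window ran from 10 kb upstream to 1 kb downstream of the probe, and 79 members could be placed (all but Rpl15). All 79 had an H3K4me3 peak, the mark of active promoters, in EBF-/- and in RAG1-/- cells, against 25.5% and 30.0% of 12209 genes placed in the same way. Acetylated H3K9/14, another mark of active genes, was present at 78 in EBF-/- and 77 in RAG1-/- cells (30.6% and 29.1% of genes). H3K4me2 was present at 71 in each (37.1% and 36.7%). H3K27me3, the Polycomb mark, was present at 0 and 2 (0.794% and 1.74%), those 2 being Rpl26 and Rpl28, and in neither within 1 kb of the H3K4me3 centre. The mock list had a peak at 0 members (0.246% of genes). For 0 of 79 the exact binomial interval (95%) allows up to 4.56%, for counting error only. Genes with distant starts can lie outside this window, so the share over all genes is lower for long genes, and the window can hold a neighbour's promoter.

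The H3K4me3 peaks of the members were strong for their lists. The authors' score of the strongest peak had a median percentile of 84.6 in the RAG1-/- list and 84.7 in the EBF-/- list, beside 63.4 and 58.7 over all genes with such a peak. Over the 75th percentile of the list were 55 members in RAG1-/- and 52 in EBF-/- cells. The centres lay within 1 kb of each other in both genotypes for 74 members, at a median of 76 bases, and 1452 bases upstream of the probe at the median. Rps14 (percentile 99.6 in RAG1-/- and 99.9 in EBF-/-) and Rpl18 (99.6 and 99.5) were at the top. Rpl10 was lowest in both (39.9 and 15.6, at chrX:70523528-70524527 in RAG1-/- cells, mm8), followed in RAG1-/- cells by Rps4x (50.0 and 29.4) and Rpl36a (50.5 and 61.5), all 3 on the X chromosome with Rpl39 (53.9 and 50.4). The 2 values of Rpl36a come from different peaks, 4854 bases upstream of its probe in RAG1-/- and 1598 in EBF-/- cells. The peak of Rpl3l (52.6 and 27.1) lay 1402 bases downstream of its probe, and whether it belongs to Rpl3l or a neighbour was not settled.

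**Figure D4:**
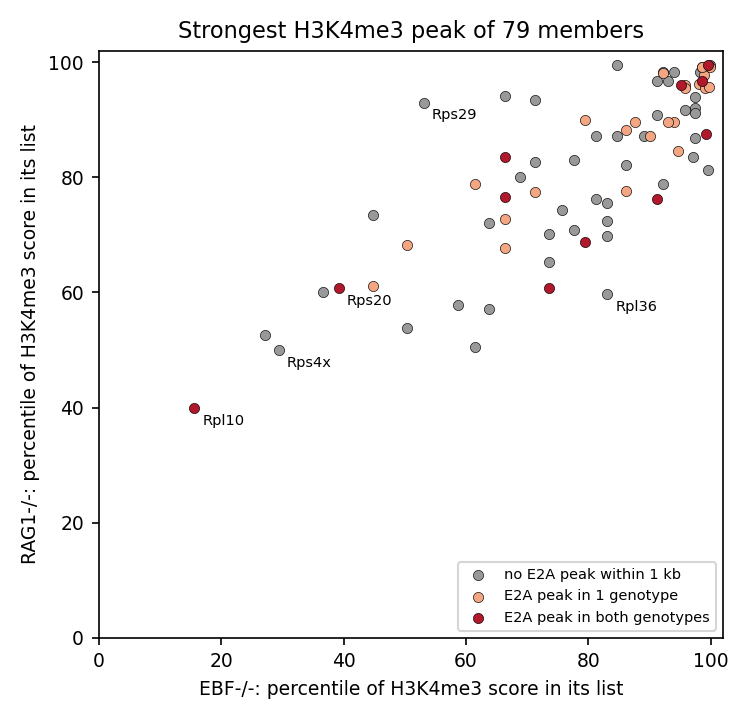
Percentile of the strongest H3K4me3 peak's score within the EBF-/- list (horizontal axis) and the RAG1-/- list (vertical axis) for 79 placed ribosomal protein genes, coloured by E2A peaks within 1 kb of the H3K4me3 centre. Most members lie in the upper right corner, and Rpl10 is lowest on both axes (15.6 and 39.9).

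In the same window, E2A peaks lay at 30 members in EBF-/- and 28 in RAG1-/- cells (7.67% and 12.9% of genes), EBF1 at 4 (1.96%), FOXO1 at 2 (2.25%), CTCF at 52 (36.2%) and H3K4me1 at 15 and 45 (9.57% and 29.2%). In E2A-/- cells carrying E47-ER, E2A peaks lay at 19 members after 1 h (29.6%) and 14 after 6 h (19.8%), and in A12 cells at 19 (24.1% of the members, against 19.0%). H3K4me1 in E2A-/- cells was found at 24 members after 1 h of E47-ER (21.8% of genes), at 19 after 6 h (14.8%) and at 21 after 6 h of bHLH-ER (21.1%), a form of the fusion without the activation domains. In A12 cells it was found at 4 members with E47-ER (7.40%) and 6 with bHLH-ER (8.19%).

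Within 1 kb of the H3K4me3 centre, the members could be compared with 3732 genes that had such a peak. E2A peaks lay there at 28 of 79 members in EBF-/- cells (35.4%, against 16.8% of genes) and at 18 in RAG1-/- cells (22.8%, against 18.6%). The EBF-/- E2A list is shorter (4531 peaks) than the RAG1-/- one (11846 peaks). Both genotypes had the peak at 11 members, EBF-/- only at 17, RAG1-/- only at 7 and neither at 44. The 11 were Rpl3, Rpl10, Rpl18, Rpl27, Rpl38 and Rpl41 of the large subunit and Rps7, Rps9, Rps15, Rps20 and Rps27 of the small subunit. These peaks were mostly weak for their lists, with a median score percentile of 34.0 in EBF-/- and 36.9 in RAG1-/- cells. With the upper 50% of each list alone 10 and 6 members remained, and the shares over all genes were not computed. Rps9 was the highest in EBF-/- cells (score 27, percentile 90.4) and Rpl35 in RAG1-/- cells (score 32, percentile 88.4). For Rpl35 the H3K4me3 centre used was that of the stronger of 2 RAG1-/- peaks, 4310 bases upstream of its probe. The strongest EBF-/- peak lay 1060 bases upstream. Whether the peak used belongs to Rpl35 or a neighbour was not settled. Rps27 was high in both (percentile 87.8 and 78.5).

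Peaks of E2A after E47-ER were counted in the same way. In E2A-/- cells they lay at 5 of 79 after 1 h (6.33%, against 31.8%) and at 5 after 6 h (6.33%, against 17.3%), and in A12 cells at 7 after 6 h (8.86%, against 19.4%), shares that were not tested. With 20 kb upstream searched for the H3K4me3 centre these counts were 10, 8 and 11, and with the upper 50% of each list 0, 1 and 2. The shares over all genes under these alternatives were not computed. These lists are longer, with 26792, 15386 and 17030 peaks, and per the labels the E2A libraries named the same antibody. Rpl27, whose promoter is printed above with CAGGTG, had a peak in all 5 E2A libraries, 573 to 652 bases from its H3K4me3 centre. The mock list had 0 peaks there (0.107% of genes). Matches to CAGNTG were found in 9 of 28 matched promoters of members with an E2A peak in either genotype and in 5 of 31 without one, a difference that was not tested. Of the 11 members with the peak in both genotypes 9 had a matched promoter, and 3 of these 9, Rpl27, Rpl38 and Rpl41, held CAGNTG.

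The other marks and factors near the H3K4me3 centre were as follows. An EBF-/- H3K4me3 peak was near it at 78 members (98.7%, against 82.2%), the centre being that of the RAG1-/- peak (98.4% of genes). Acetylated H3K9/14 was near it at 76 members in EBF-/- and 73 in RAG1-/- cells (96.2% and 92.4%, against 88.8% and 88.7%). H3K4me2 was near it at 49 and 54 (62.0% and 68.4%, against 75.9% and 78.8%). H3K4me1, a mark of enhancers and promoter flanks, was near it at 1 member in EBF-/- cells and at 23 in RAG1-/- cells (1.27% and 29.1%, against 8.12% and 36.5%), from lists of 7544 and 23054 peaks. With the upper 50% of each list these became 0 and 6 members, and the shares over all genes were not computed. CTCF, which organises chromatin loops, was near it at 24 members in RAG1-/- cells (30.4%, against 26.8%). EBF1 was near it at 1 member, Rpl23a (1.27%, against 2.28%), and FOXO1 at 2, Rpl18 and Rps27 (2.53%, against 3.62%).

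**Figure D5:**
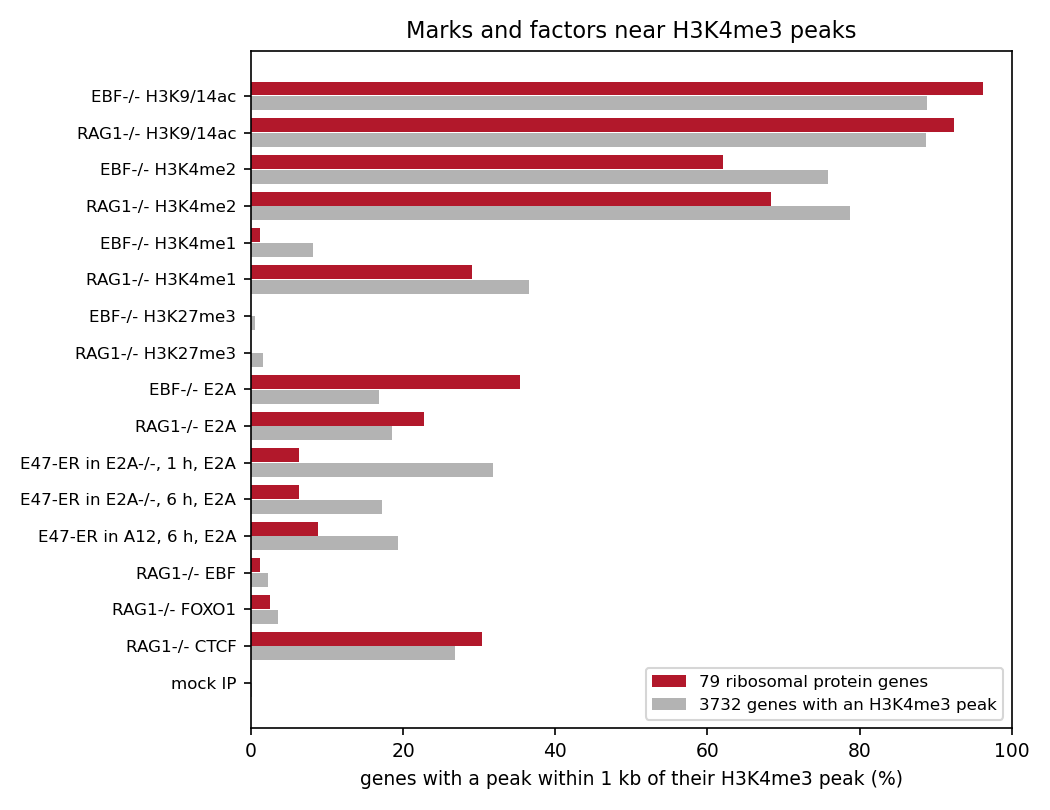
Share of genes with a peak within 1 kb of their H3K4me3 centre (horizontal axis, percent) for 79 ribosomal protein genes (red) and 3732 genes with an H3K4me3 peak (grey), by library (vertical axis). E2A in EBF-/- cells is at 35.4% of the members against 16.8% of genes, and E47-ER at 1 h is at 6.33% against 31.8%.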

How the data were processed

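The members and gene lists were chosen with earlier results of these data known. Per the file headers, arrays were read with Agilent Feature Extraction 9.5.3.1, and the deposited intensity values are processed signals, from which the authors' software had taken background and spatial trend and in which it had balanced the dyes of an array. The 6 samples were single channels of 4 two-colour arrays, 1 sample of each group in Cy5 and 1 in Cy3. Control and outlier spots were left out, log2 signals were averaged over the spots of a probe, and probe values were then quantile normalized across the 6 channels. A probe was kept where some group had it well above background in both its samples (22133 of 41099 probes with a value in every channel), and the brightest probe per gene left 12816 genes. The model in limma 3.58.1 (R 4.3.3) held terms for group and dye, a random block for the array (correlation -0.0354) and a trended prior over all 6 samples, with Benjamini-Hochberg adjustment over all genes. The fit was tested on simulated data.

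Peak lists came from HOMER on build mm8, per the submitters' processing notes, with 1 library a list. The deposited score of a peak is the authors' own whole number and was used only to rank peaks within a list. A gene had a peak where any base overlapped the window. The strand was read from the order of the probe's coordinates. Promoter sequences are those of RefSeq in GRCm38.p6, and no coordinates were converted between builds. Named genes were up to 10 called members with the largest change in each direction, paralogs, genes tied to Diamond-Blackfan anaemia, Rpsa, Rps6 and stalk genes, and up to 3 called genes from each pathway list. Other members and probes were named after their values were seen. Alternatives changed the scaling, background, filter, probe, covariates, samples, window, overlap and peak threshold. The other channel of 2 arrays has no labelled RNA and was not used here. The array's names place 7 probes of ribosomal protein genes under other symbols, and these are not analysed here. Some results on single members are not reported here.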

Additional observations from a re-analysis of the deposited data

How the results depend on the processing

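Each count of called members was recomputed under 16 alternatives of the array fit, 6 of which left out a sample. In EBF-/- against E2A-/- cells, averaging a gene's probes gave 2 higher and 2 lower, and no filter on dim probes gave 0 lower. Leaving out a sample gave 0 to 4 higher and 0 to 1 lower. In RAG1-/- against EBF-/- cells the 21 lower became 5 with 75th percentile scaling, 2 with median scaling, 3 with no filter, 8 with only the 2 groups fitted and 1 to 18 when a sample was left out, and 0 were higher in each of these. In RAG1-/- against E2A-/- cells the 2 higher became 4 with 75th percentile scaling, 1 with median scaling or normexp, 0 with no filter or only the 2 groups fitted, and 0 to 2 when a sample was left out. The 10 lower became 3 with 75th percentile scaling, median scaling, no filter or only the 2 groups fitted, 6 with no dye term and 1 to 10 when a sample was left out. Calls over all genes moved too. Of all genes in RAG1-/- against EBF-/- cells, 2954 of 12816 were called lower in the main fit. That count was 2751 with 75th percentile scaling and 1941 with median scaling. It was 2408 of 21305 with no filter and 2666 with only the 2 groups fitted. In RAG1-/- against E2A-/- cells 2962 were lower in the main fit. In the same order of fits that count was 2716, 2460, 2421 and 2596. The cause of these changes was not tested. Rps15a turned from -0.30 to 0.04 with median scaling in RAG1-/- against EBF-/- cells. Over all genes, median scaling moved the split of calls in EBF-/- against E2A-/- from 1620 higher and 1431 lower to 951 and 1583.

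Replicate numbers are shared between groups. Differences of replicate 2 from replicate 1 correlated across genes at -0.40 for E2A-/- with EBF-/- cells. They correlated at 0.17 for E2A-/- with RAG1-/- and at 0.02 for EBF-/- with RAG1-/- cells. Replicate 1 of E2A-/- and of RAG1-/- cells shared an array, as did E2A-/- replicate 2 and EBF-/- replicate 1. These values therefore cannot show whether same-numbered samples form pairs. With the replicate block in place of dye, 11 members were lower in RAG1-/- against EBF-/- cells, and 0 were higher and 4 lower in RAG1-/- against E2A-/-.

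Promoter counts moved with the window and the peak threshold. With the upper 50% of each list, E2A lay at 12 members in EBF-/- and 12 in RAG1-/- cells (4.1% and 6.18% of all genes). H3K4me3 lay at 72 in EBF-/- cells (14.8%). In RAG1-/- cells H3K9/14ac lay at 70 (19.5%), H3K4me1 at 18 (14.4%) and CTCF at 39 (22.4%). EBF1 and H3K27me3 lay at 0 in RAG1-/- cells (0.901% and 1.02%). E47-ER lay at 10 (1 h) and 7 (6 h) in E2A-/- cells (16.9% and 11.8%) and 9 in A12 (11.1%). With 20 kb upstream, CTCF lay at 62 (54.7% of all genes), RAG1-/- H3K4me1 at 64 (47.3%) and RAG1-/- H3K9/14ac at 79 (47.1%). E47-ER then lay at 33, 27 and 33 (43.0%, 29.9% and 30.0%). With 10 kb on either side, CTCF lay at 67 (55.7% of all genes), RAG1-/- H3K4me1 at 55 (43.8%) and RAG1-/- H3K27me3 at 7 (3.64%). E47-ER then lay at 39, 29 and 35 (42.6%, 29.8% and 29.4%). With 2 samples a group, the number of arrays limits the precision.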
